A study of Mus musculus with 2931 samples.

Results

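The venous endothelial cells (venous EC) of the mouse lung line the vessels that carry blood from the capillaries back to the heart. They were compared at postnatal day 7 (P7) between pups kept under hyperoxia, that is, in raised oxygen, and pups in normal air. The members are the cells that the authors labelled Venous EC or Proliferative venous EC. They number 107 of the 2931 cells of the series, of the 1083 cells at P7 and of 213 venous cells at all ages. A group consisted of 1 female and 1 male mouse, and every comparison is of 2 mice against 2. The normal-air mice gave 21 (female) and 23 (male) venous cells, and the hyperoxia mice 28 and 35. The oxygen level, the length of exposure, the strain and whether each mouse name is a single animal or a pool are not given in the sources used here. If a name is a pool or mice are littermates, p-values measure only the spread between these samples. Venous cells of normal-air mice at the embryonic stage E18.5 and P1 entered the model for the spread between mice, and P21 was left out because its male mouse gave 4 venous cells (the female gave 13).

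Reads were counted per gene without molecular identifiers, and the reads of a mouse's venous cells were summed. The sums were 25923638 and 5372406 reads in the female and male mouse in normal air, and 18346381 and 32495729 under hyperoxia. The median cell had 1226629, 184244, 666811.5 and 913225 reads, so the male mouse in normal air was the shallowest by far. Its cells and those of the male hyperoxia mouse shared a sequencing run, whereas the females were each in other runs. For the females, the run and the treatment cannot be told apart. The males, as a pair within 1 run, are given below for some of the gene lists. All 8 general endothelial markers and all 5 venous markers had reads in each of the 4 sums. Xist had 200 and 292 CPM (reads per 1000000 reads of the sum) in the female mice and 0 in the males, and the labels of sex held in all 4. Ptprc, Cd79a and Cd3e (immune), Sftpb and Epcam (epithelial), Dcn (fibroblast) and Ccl21a and Pdpn (lymphatic) had 0 reads in all 4 mice. Other members of each of these lists had reads. The 8 fibroblast markers summed to 0.579 and 39.6 CPM in normal air and 88.5 and 81.3 CPM under hyperoxia, where most of it was Col3a1. The 10 immune markers summed to between 2.79 and 24.4 CPM, and the 9 epithelial markers to between 0.585 and 17.987 CPM. Of the epithelial markers, Ager reached 15.4 CPM in the female hyperoxia mouse. The 5 platelet markers summed to 53.2 CPM in the male hyperoxia mouse and to at most 15.4 CPM in the others. The 8 arterial markers summed to between 3100.4 and 6147 CPM, most of it Fbln5. The 7 Car4- capillary markers summed to between 5938.3 and 7448.3 CPM, above the 5 venous markers at 3423.9 to 4631.3 CPM. The 8 lymphatic markers summed to 1960.5 and 1687.7 CPM in normal air and 2256.5 and 1701.8 CPM under hyperoxia. Most of that was Lyve1, and Flt4 reached 91.8 CPM in the male mouse in normal air.

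As background, the transcription factor Nr2f2 (COUP-TFII) maintains venous identity. Post-capillary venules are the main place where leukocytes leave the blood, with selectins, Icam1 and Vcam1 as their anchors. Raised oxygen generates reactive oxygen species, which damage DNA. The p53 protein answers DNA damage by switching on cell-cycle inhibitors such as Cdkn1a (p21) and death genes such as Bax, and the factor NRF2 answers oxidants by switching on detoxifying enzymes. In newborn rodents, raised oxygen is used as a model of bronchopulmonary dysplasia, the lung disease of infants born too early.

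Cells labelled Proliferative venous EC were found in both hyperoxia mice and in no other mouse compared here. They were 0 of 21 and 0 of 23 venous cells in the normal-air mice, which allows a share of up to 14.3% and 13.04% (3 cells). They were 5 of 28 cells in the female hyperoxia mouse (17.9%, 95% exact Clopper-Pearson interval 6.06 to 36.9%) and 5 of 35 in the male (14.3%, 4.81 to 30.3%). These intervals and limits cover counting error only and overlap. An exact permutation test over the mice, 2-sided, gave p = 0.333, the smallest that 2 mice against 2 can give. Both E18.5 mice and both P1 mice also had 0 such cells. How the authors set this label is not given in the sources used here, and cycling cells of normal-air mice could carry the label Proliferative EC instead. Of the cells labelled Proliferative EC, 0 of 55 and 2 of 34 in the normal-air mice had reads of all 3 of Slc6a2, Nr2f2 and Vwf at 50000 reads per cell, as had 2 of 36 and 0 of 30 in the hyperoxia mice. Of the Proliferative venous EC themselves only 2 of 5 and 3 of 5 had all 3, so this measure misses such cells. Reads of Slc6a2 with the cycle genes Mki67 and Top2a were found in 0 and 2 Proliferative EC in normal air. Under hyperoxia they were found in 2 and 0. The norepinephrine transporter Slc6a2 is used here as a venous marker. At the same depth it had a read in 18 of 21, 19 of 23, 18 of 28 and 24 of 35 venous cells, against 1 of 206, 0 of 113, 0 of 153 and 1 of 132 Car4- capillary cells of the same mice.

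All venous cells of the 4 P7 mice came from a sort gate named after CD31, a surface protein of endothelium, except for 3 cells of the female mouse in normal air from a gate named mesench. The share of all venous cells among the CD31-gate cells was 5.63% (3.37 to 8.74%) and 11.5% (7.43 to 16.8%) in normal air. Under hyperoxia it was 10.6% (7.14 to 14.9%) and 13.8% (9.79 to 18.6%). The groups overlap, the difference of the means was 3.61 percentage points, and the exact permutation p was 0.667. The share is set by the sort and by loss of cells as well as by the tissue.

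The cycle genes were read cell by cell after each cell was thinned to 50000 reads. Of 26 genes of mitosis, the Proliferative venous EC had a median of 23 with a read in the female mouse (range 14 to 24) and 20 in the male (range 19 to 22). Cells with the label Venous EC had medians of 0 and 1 in normal air and of 1 and 1 under hyperoxia. The label itself names proliferation, so this describes it and is no test of it. Reads of both Mki67, the standard marker of cycling cells, and Top2a, the topoisomerase that untangles replicated DNA, were found in 0 of 21 and 0 of 23 venous cells in normal air and in 6 of 28 and 7 of 35 under hyperoxia. Of these, 1 and 3 cells carried the label Venous EC. Another cell of the female hyperoxia mouse with the label Venous EC had reads of 18 mitosis genes, Mki67 among them, but 0 of Top2a and 0 of Cdkn1a.

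By their medians, the Proliferative venous EC were high in Cdkn1a, the inhibitor of cyclin-dependent kinases that halts the cycle. Their median was 7207 CPM in the female mouse (lowest 6453, highest 10762) and 5187 CPM in the male (236 to 16643). The Venous EC of the same mice had medians of 1736 and 3029 CPM, and those in normal air had 97.8 and 38.0 CPM. Cdkn1a had a read in 11 of 21 and 12 of 23 venous cells in normal air and in 26 of 28 and 33 of 35 under hyperoxia. In each hyperoxia mouse the median was higher in the proliferative cells than in the others. In the male mouse, though, the proliferative cells reached down to 236 CPM, below the median of the Venous EC. The Venous EC of that mouse ranged from 0 to 24970 CPM, which spans all its proliferative cells, and those of the female mouse from 0 to 4014 CPM.

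**Figure D1:**
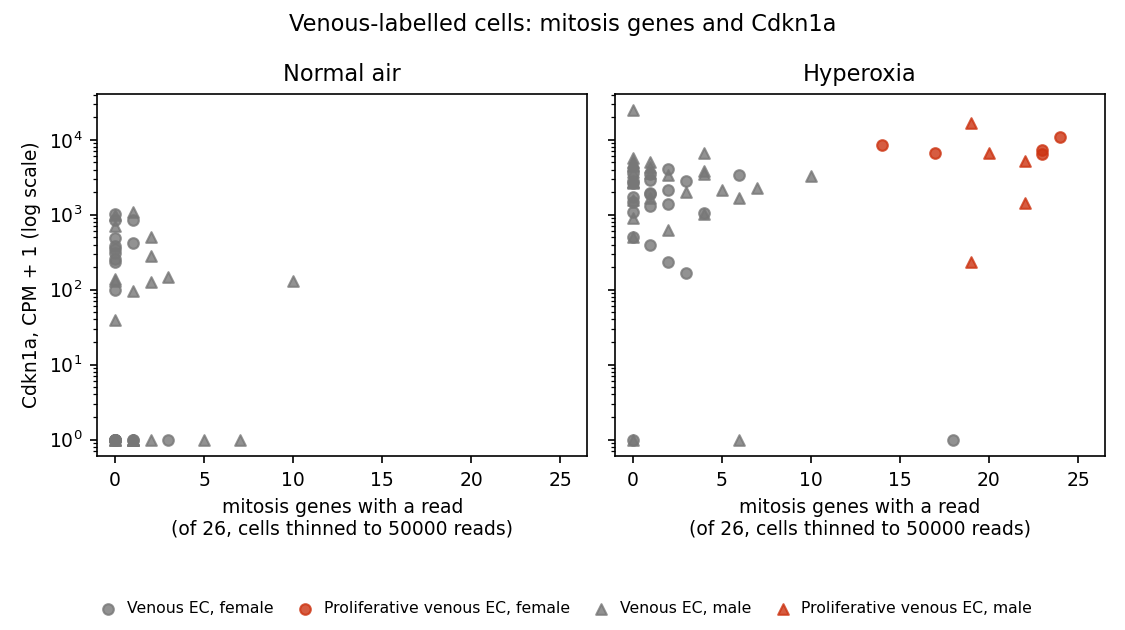
Each point is 1 venous cell at P7 in normal air (left) or hyperoxia (right). The x axis is the number of mitosis genes (of 26) with a read after thinning to 50000 reads, and the y axis is Cdkn1a in CPM + 1 on a log scale. Circles are cells of the female mice, triangles of the male mice, and red marks the label Proliferative venous EC. The 10 red cells have 14 or more mitosis genes and all have reads of Cdkn1a, and most grey cells under hyperoxia lie above those in normal air.

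Across the transcriptome, 0 of 12477 genes passed an adjusted p of 0.05 in edgeR's quasi-likelihood test (0%), and the smallest adjusted p of any gene was 0.989. At an unadjusted p under 0.05, 244 genes were higher under hyperoxia (1.96%) and 152 were lower (1.22%), together fewer than the 5% that this threshold lets through without any difference. The words higher and lower below therefore describe the 4 mice and are no calls. DESeq2 on the same sums called 81 genes higher (0.649%) and 34 lower (0.273%), given here as an alternative. In simulated counts of this design DESeq2 called many unchanged genes where edgeR called few, but edgeR missed most of the changed genes. Those counts were drawn with edgeR's own estimates of the spread, so they cannot decide between the tools. The 0 calls of edgeR do not show that no gene changed. In edgeR, 10 genes passed when only the 4 P7 mice were fitted, all higher (0.0851%): Ackr1, Anxa8, Aurkb, Ccne1, Cdca3, Cdkn1a, Cryab, Ephx1, Pqlc3 and Psrc1. With the label Venous EC alone edgeR called 0 of 12326 genes, with 172 higher (1.40%) and 159 lower (1.29%) at an unadjusted p under 0.05. Both hyperoxia mice lay above both normal-air mice for 20.1% of the genes tested and below both for 16.4%, the shares against which the counts below are read. The median log2 change of all genes was 0.01.

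Most p53 targets were higher in both hyperoxia mice. Of 30 targets tested, both hyperoxia mice exceeded both normal-air mice in 20, against 20.1% of all genes, and 2 were lower. At an unadjusted p under 0.05 there were 9 higher and 0 lower (1.96% and 1.22% of all genes), and the median log2 change was 2.19. The male pair within 1 run had a median of 2.65 on the log2(CPM + 1) scale. A log2 change above 0 was found for 23 (50.3% of all genes) and below 0 for 7 (49.4% of all genes). With the label Venous EC alone the median was 1.87, and 7 members were higher at an unadjusted p under 0.05 (1.40% of all genes). Without the P7 female in normal air the median was 3.38.

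Cdkn1a lies on chromosome 17 from 29090976 to 29100727. It had 325 and 167 CPM in the female and male mouse in normal air and 2802 and 3858 CPM under hyperoxia. Both hyperoxia mice stood far above, by 3.73 on the log2 scale (SE 0.69, unadjusted p 0.000173, edgeR adjusted p 0.989). Over 18 alternatives the change stayed between 3.29 and 4.49, with an adjusted p between 7.75e-06 (DESeq2) and 1. The venous cells at P1 in normal air had 594 and 1018 CPM and those at E18.5 35.7 and 112, so both P1 mice lay between the P7 groups.

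Bax, which opens the mitochondrial membrane in apoptosis, lies on chromosome 7 from 45461697 to 45466898. It had 55.7 and 107 CPM in normal air and 474 and 723 CPM under hyperoxia (log2 change 2.89, SE 0.70), and a read in all 35 cells of the male hyperoxia mouse. Ephx1, an epoxide hydrolase that detoxifies reactive compounds, was at 42.9 and 42.3 CPM against 367 and 426 CPM (log2 change 3.21, SE 0.84). In both genes the groups were wide apart, and the mice of a group lay closer together in Ephx1 than in Bax. Without the Proliferative venous EC the changes were 2.90 and 3.23.

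Other targets had no reads in either normal-air mouse. Their ratio over the pooled reads is then a lower bound for those reads, with 3 reads set as the floor of a group at 0. Here and below, such bounds, ratios and counting intervals treat reads as independent, although 1 cell can give many reads without molecular identifiers. They cover neither the spread between cells nor that between mice and do not bound the difference between the groups. Psrc1, a microtubule protein, had 178 and 135 CPM under hyperoxia and was at least 1566-fold higher. Its reads came from 16 of 28 and 14 of 35 cells, and from 0 of the 44 cells in normal air. Eda2r, a death-receptor family member, had 31.7 and 60.3 CPM in 15 and 15 cells (at least 521-fold higher). Perp, a membrane protein of p53-dependent apoptosis, had 47.3 and 8.92 CPM (at least 238-fold higher), from 3 of 28 and 3 of 35 cells. In the label Venous EC alone Perp had 19.035 and 2.24 CPM. Gtse1, a regulator of p53 in the G2 phase, had 1 read in normal air against 91.5 and 26.9 CPM, a ratio of 1572 with a 95% counting interval of 282 to 62120. Ddit4l, an inhibitor of mTOR signalling, had 0.0386 and 0.931 CPM in normal air and 57.6 and 40.9 CPM under hyperoxia. These genes share a pattern of next to no reads in normal air and reads in both hyperoxia mice.

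The members with an unadjusted p of 0.05 or more were mixed. Phlda3, an inhibitor of Akt signalling, had 149 and 105 CPM against 419 and 458 CPM (log2 change 1.76, SE 0.88). Ccng1, cyclin G1, had 23.3 and 8.19 CPM against 67.9 and 82.5 CPM (2.21, SE 1.02). The stress hormone Gdf15 had 0 and 8.19 CPM in normal air and 122 and 108 CPM under hyperoxia. Mdm2, the ligase that degrades p53, overlapped, with 70.2 and 12.8 CPM against 95.0 and 66.0 CPM. Plk2 and Btg2, the most abundant members after Cdkn1a, overlapped too. Plk2 had 2219 and 708 CPM against 1602 and 632 CPM, and Btg2 had 938 and 1528 CPM against 1182 and 738 CPM. The 2 lower members were Sesn1, with 20.6 and 19.5 CPM against 19.2 and 10.96 CPM, and the DNA repair gene Ddb2, with 8.45 and 6.51 CPM against 3.38 and 1.08 CPM.

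Promoters of the list were searched because most of its members were higher. The genes were listed for being p53 targets, so an excess of matches over all genes follows from that choice. It says nothing of these cells or of hyperoxia. The consensus of the p53 response element, a pair of 10-base half-sites with no spacer, reads the same on both strands. With at most 1 mismatch it was found in 3 of 22 list genes with a RefSeq promoter (13.6%), against 0.107% of 27025 genes, in windows from 250 bases before to 50 after the start. With at most 2 mismatches it was found in 4 (18.2%) against 0.940%. Cdkn1a, Ccng1 and Gtse1 had 1 mismatch each, and Ckap2 had 2. The match in Gtse1 spans the start and is not printed. Below, the 250 bases before the start are printed for the 3 genes whose match lies wholly upstream, 5′ to 3′ on the gene's strand, with the 20-base match in capitals (RefSeq, GRCm38.p6). The match ends 32 bases before the start in Cdkn1a (chr17:29090729-29090978, plus strand), 176 before it in Ccng1 (chr11:40755287-40755536, minus strand) and 184 before it in Ckap2 (chr8:22185820-22186069, minus strand). Ckap2, a spindle protein, had 9.88 and 7.45 CPM in normal air and 141 and 72.6 CPM under hyperoxia. Its log2 change was 3.58 with both labels and 1.73 with the label Venous EC alone.
Cdkn1a: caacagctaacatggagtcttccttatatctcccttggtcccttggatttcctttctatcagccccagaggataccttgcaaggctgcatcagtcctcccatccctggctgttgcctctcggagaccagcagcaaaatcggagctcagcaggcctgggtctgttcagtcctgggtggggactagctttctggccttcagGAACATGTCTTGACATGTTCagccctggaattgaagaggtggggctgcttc
Ccng1: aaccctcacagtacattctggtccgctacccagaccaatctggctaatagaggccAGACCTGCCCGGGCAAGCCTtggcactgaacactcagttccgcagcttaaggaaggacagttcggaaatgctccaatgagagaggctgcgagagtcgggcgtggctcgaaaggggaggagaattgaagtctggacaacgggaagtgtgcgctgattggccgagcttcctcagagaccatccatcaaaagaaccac
Ckap2: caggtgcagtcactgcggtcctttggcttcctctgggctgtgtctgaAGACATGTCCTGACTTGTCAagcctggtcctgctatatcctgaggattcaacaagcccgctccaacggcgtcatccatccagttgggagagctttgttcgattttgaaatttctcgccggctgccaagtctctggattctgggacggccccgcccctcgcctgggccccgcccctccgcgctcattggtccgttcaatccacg

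A match is a run of letters and does not show that p53 bound there. Bax and Psrc1 had no match at this setting in these windows, which says nothing of p53 at other places.

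Cell-cycle genes were higher in the hyperoxia mice when both labels were summed. Of 25 mitosis genes tested, 24 were higher in both hyperoxia mice (20.1% of all genes). Of the 25, 10 were higher with an unadjusted p under 0.05 (1.96% of all genes), and the median log2 change was 4.82. Of 28 DNA replication genes, 26 were higher in both, 3 with an unadjusted p under 0.05, and the median was 1.88. With the label Venous EC alone the medians were 1.70 and 1.27. There 2 of 23 mitosis and 2 of 28 replication genes were higher at an unadjusted p under 0.05 (1.40% of all genes). The medians with both labels depend on the shallow P7 male in normal air, without which they were 10.996 and 3.41. On the log2(CPM + 1) scale the male pair within 1 run had medians of 2.87 and 1.21, against 3.50 and 1.83 for the group means. Leaving out the 10 proliferative cells lowered the mitosis median more than the replication median. How far the label and the treatment each set this was not tested.

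The mitosis genes show the split by label. Mki67 had 0 and 0.931 CPM in normal air and 101 and 48.3 CPM under hyperoxia. In the label Venous EC alone it had 20.7 and 19.8 CPM under hyperoxia. Top2a had 8.33 and 30.2 CPM in normal air and 155 and 211 CPM under hyperoxia, a log2 change of 3.28 (SE 1.65) that was 0.91 without the proliferative cells. Ube2c, an enzyme of the anaphase complex, had a log2 change of 3.43 (SE 1.15) with both labels and -0.079 with the label Venous EC alone. Aurkb, a kinase of the mitotic spindle, had 0 reads in normal air and 130 and 103 CPM under hyperoxia (at least 1179-fold higher), and 2.39 and 10.02 CPM in the label Venous EC alone.

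Among the genes of S phase entry and replication the part of the proliferative cells varied. Tyms, which makes thymidylate for DNA, had 34.3 and 77.8 CPM in normal air and 285 and 369 CPM under hyperoxia (log2 change 2.56, SE 0.73, and 2.03 without the proliferative cells). Ccne1, cyclin E1, had 0 reads in normal air and 66.2 and 73.2 CPM under hyperoxia (at least 737-fold higher), from 6 and 7 cells, and 49.7 and 22.3 CPM in the label Venous EC alone. Pcna, the clamp that holds the polymerase on DNA, had 43.6 and 80.6 CPM against 162 and 194 CPM (log2 change 1.53, SE 0.70, and 0.88 without the proliferative cells). Rrm2, a subunit of ribonucleotide reductase, had 0 and 30.7 CPM against 154 and 264 CPM, a log2 change of 3.84 (SE 1.94) that was 1.31 without the proliferative cells. Ccnd1, cyclin D1, which drives the exit from rest, had 25.6 and 118 CPM against 374 and 326 CPM (2.31, SE 0.72). Ccnd2 had 550 and 421 CPM against 879 and 1179 CPM (1.07, SE 0.48). Both cyclins D were as far apart in the label Venous EC alone, at 2.49 and 1.21.

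The cycle inhibitors did not go together. Cdkn1c (p57), an imprinted inhibitor, was lower, with 102 and 54.7 CPM in normal air and 7.58 and 3.29 CPM under hyperoxia (log2 change -3.91, SE 0.77). At E18.5 and P1 its 4 mice had between 102 and 198 CPM, so both hyperoxia mice lay under all 6 others. Its reads came from 4 of 28 and 3 of 35 cells under hyperoxia and from 5 of 21 and 11 of 23 in normal air. Of the 21 senescence and cell-cycle inhibitor genes tested, 8 were higher and 5 lower in both hyperoxia mice (20.1% and 16.4% of all genes). This list is not made of inhibitors alone, as it also holds the cyclins Ccnd1, Ccnd2 and Ccnd3. At an unadjusted p under 0.05 there were 3 higher (Cdkn1a, Ccnd1 and Ccnd2) and 1 lower (Cdkn1c), against 1.96% and 1.22% of all genes. The median log2 change of the 21 was 0.74, with 0.04 in the label Venous EC alone and 0.29 without the P7 female in normal air. On the log2(CPM + 1) scale the male pair within 1 run had a median of 0.27, against 0.67 for the group means.

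**Figure D2:**
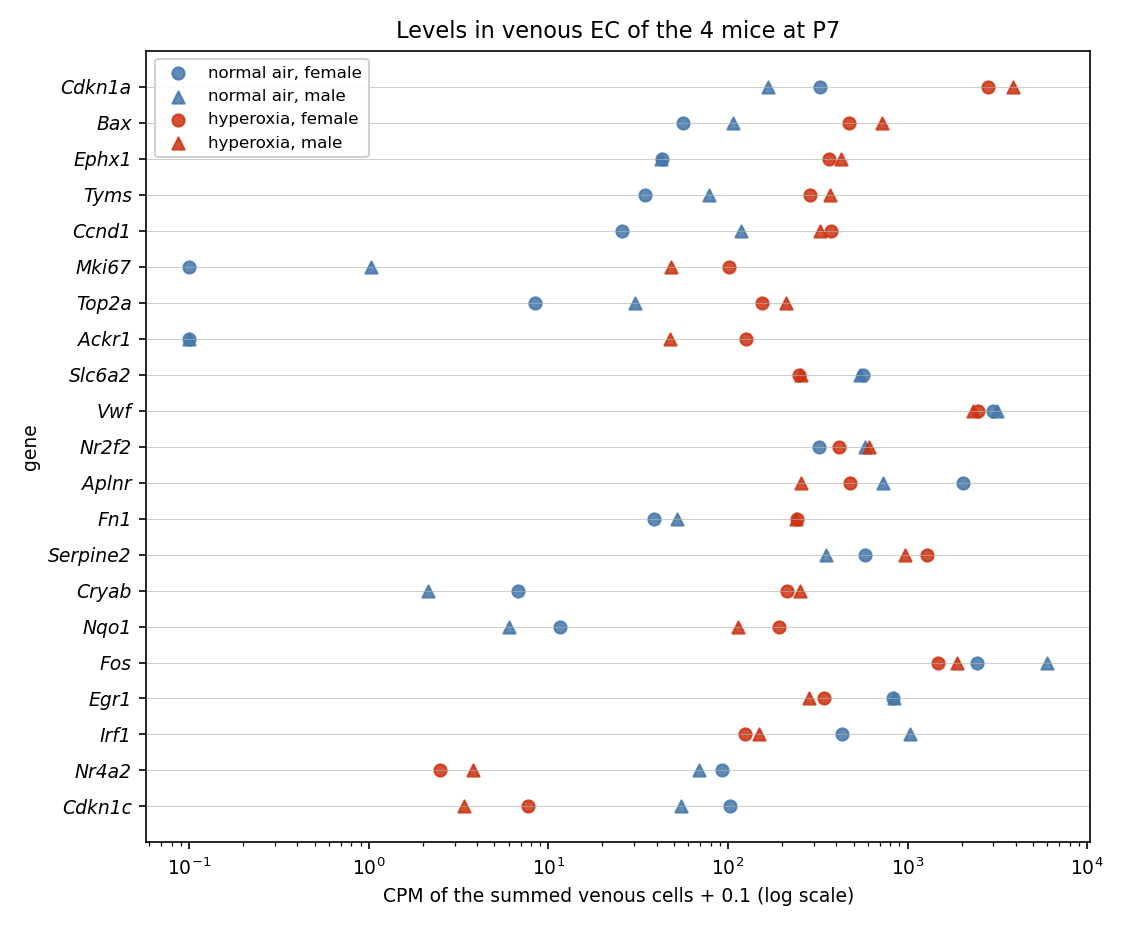
Level of each gene in the summed venous cells (both labels) of each of the 4 mice at P7, as CPM + 0.1 on a log axis. Blue is normal air, red is hyperoxia, circles are female and triangles are male mice. Cdkn1a, Bax and Ephx1 lie higher in both red mice, Fos, Egr1, Irf1, Nr4a2 and Cdkn1c lower, and Nr2f2 overlaps.

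Venous identity genes were split. Of 24 tested, 3 were higher in both hyperoxia mice (20.1% of all genes) and 7 lower (16.4% of all genes). The median log2 change was -0.23 (0.14 without the P7 female in normal air). The 3 higher members were Emcn, Ackr1 and Ccnd1, the last being the cyclin described above. Nr2f2 overlapped, with 321 and 581 CPM in normal air and 414 and 606 CPM under hyperoxia. The von Willebrand factor gene Vwf had 2989 and 3143 CPM against 2467 and 2322 CPM, and the venous receptor Ephb4 had 427 and 278 CPM against 289 and 306 CPM. Slc6a2 had 567 and 543 CPM in normal air and 248 and 256 CPM under hyperoxia, each pair close together and apart from the other. Its log2 change of -1.16 (SE 1.01, unadjusted p 0.276) was nevertheless within the spread over all mice of the model. Across the other ages in the model Slc6a2 had 7.71 and 0.112 CPM at E18.5 and 179 and 91.9 CPM at P1.

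Aplnr, the apelin receptor, had 2038 and 728 CPM in normal air and 479 and 254 CPM under hyperoxia (log2 change -1.97, SE 0.66). The female mouse in normal air was well above the other 3. Apln, its ligand and a marker of capillaries, went the other way, from 27.9 and 46.5 CPM to 110 and 139 CPM (1.74, SE 1.29). Amigo2, an adhesion protein, had 753 and 181 CPM against 103 and 75.1 CPM (-2.45, SE 0.86). Emcn, endomucin, a mucin of veins and capillaries that hinders leukocyte adhesion, had 967 and 920 CPM against 1347 and 1655 CPM (0.66, SE 0.47).

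Ackr1, the chemokine receptor that marks post-capillary venules, had 0 reads in all 44 normal-air cells and 126 and 47.3 CPM under hyperoxia (at least 789-fold higher). These reads came from only 2 cells of each hyperoxia mouse, so the value rests on 4 of 63 cells. In P1 mice Ackr1 had 163 and 7.60 CPM, and at E18.5 it had 0 reads. A few cells thus carry the whole difference.

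Leukocyte anchors gave no common direction. Of 21 adhesion and chemokine genes tested, 3 were higher and 3 lower in both hyperoxia mice (20.1% and 16.4% of all genes). The median log2 change was -0.12 (0.50 without the P7 male in normal air). Icam1 overlapped, with 321 and 827 CPM in normal air and 1005 and 420 CPM under hyperoxia. Selp, P-selectin, lay between 0 and 6.51 CPM in the 4 mice. Vcam1 had 0.116 and 86.4 CPM in normal air and 6.81 and 22.8 CPM under hyperoxia. In both genes the mice of normal air alone spanned the hyperoxia mice.

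The immediate early and heat shock list had the largest share of lower genes of the 20 lists. Of 22 genes tested, 10 were lower in both hyperoxia mice (16.4% of all genes) and 1 higher, 6 and 0 with an unadjusted p under 0.05 (1.22% of all genes lower), with a median log2 change of -0.46 (-0.19 without the P7 male in normal air). Immediate early genes are switched on fast and briefly by growth factors, shear stress and other stimuli.

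The AP-1 member Fos had 2422 and 5995 CPM in normal air and 1483 and 1876 CPM under hyperoxia (log2 change -1.31, SE 0.53). Fosb had 158 and 164 CPM against 47.6 and 27.5 CPM (-2.13, SE 0.65). Egr1, an early growth response factor, had 827 and 835 CPM against 342 and 280 CPM (-1.44, SE 0.54), and Junb, Ier2 and Nr4a1 were lower by 1.24, 1.03 and 1.78 on the log2 scale. In contrast, Dusp1, Klf6 and Jun overlapped. The orphan receptor Nr4a2 differed more, with 93.0 and 68.7 CPM in normal air and 2.40 and 3.69 CPM under hyperoxia (log2 change -4.74, SE 0.88). The E18.5 and P1 mice had between 72.6 and 217 CPM of Nr4a2, all above both hyperoxia mice.

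Irf1, the transcription factor of interferon responses, had 429 and 1025 CPM in normal air and 124 and 149 CPM under hyperoxia (log2 change -2.40, SE 0.73). The interferon-stimulated list as a whole did not follow it. Of 28 genes, 5 were higher and 6 lower in both hyperoxia mice (20.1% and 16.4% of all genes), and the median was 0.01. Of 13 MHC class I genes, 2 were higher and 4 lower, with a median of -0.17 that was 0.21 without the P7 female in normal air and -0.69 without the female hyperoxia mouse. Nod1, a cytosolic sensor of bacterial cell walls, had 154 and 95.7 CPM against 13.7 and 17.2 CPM (log2 change -3.04, SE 0.79). Fgl2, a membrane prothrombinase, had 381 and 137 CPM against 46.1 and 40.1 CPM (-2.63, SE 0.70).

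Among oxidant defence genes a few stood out. Of 27 genes in the NRF2 and antioxidant list, 10 were higher in both hyperoxia mice and 0 lower (20.1% and 16.4% of all genes). At an unadjusted p under 0.05, 3 were higher (1.96% of all genes). The median log2 change of the list was 0.44 (0.19 without the male hyperoxia mouse and 0.69 without the P7 female in normal air). Nqo1, the quinone reductase, had 11.5 and 5.96 CPM in normal air and 191 and 113 CPM under hyperoxia (log2 change 4.07, SE 1.32), with reads in 19 of 28 and 19 of 35 cells against 3 of 21 and 4 of 23. Gpx3, a secreted glutathione peroxidase, had 0 reads in normal air and 24.2 and 61.8 CPM under hyperoxia (at least 503-fold higher), from 6 and 6 cells. At P1 Gpx3 had 81.2 and 15.7 CPM. Abundant members such as Prdx1 (739 and 714 CPM against 837 and 1272 CPM) differed little, and Sod2, Txnrd1 and Gclm overlapped. Cryab, a small heat shock protein outside the list, had 6.71 and 2.05 CPM in normal air and 213 and 251 CPM under hyperoxia (log2 change 5.66, SE 1.14), in 14 of 28 and 13 of 35 cells against 3 of 21 and 3 of 23.

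In the TGF-beta response and matrix list, 14 of 36 genes were higher and 5 lower in both hyperoxia mice (20.1% and 16.4% of all genes). At an unadjusted p under 0.05 there were 5 and 0 (1.96% and 1.22% of all genes). The median log2 change of the list was 0.36 (0.86 without the P7 male in normal air and 0.19 without the female hyperoxia mouse). On the log2(CPM + 1) scale the male pair within 1 run had a median of 0.14, against 0.26 for the group means. Fibronectin (Fn1) had 38.7 and 51.9 CPM in normal air and 241 and 237 CPM under hyperoxia (log2 change 2.39, SE 0.72). Serpine2, an inhibitor of thrombin and urokinase, had 579 and 353 CPM against 1287 and 970 CPM (1.24, SE 0.52). Timp3, which inhibits matrix proteases, and Cyr61, a matricellular protein, were higher by 1.31 (SE 0.53) and 1.55 (SE 0.71). Col3a1, a collagen typical of fibroblasts, had 0.231 and 14.5 CPM against 81.8 and 77.5 CPM, alongside the fibroblast marker sums above. Of the other 7 fibroblast markers, Mfap4 had 0.193 and 0 CPM against 2.83 and 3.11 CPM and Col1a2 had 0.154 and 23.8 CPM against 1.14 and 0.0615 CPM. Dcn was at 0 in all 4 mice, and Col1a1, Tcf21, Lum and Pdgfra reached at most 1.64 CPM. The part of fibroblast RNA in Fn1 was not tested.

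Of 17 coagulation genes, 8 were higher and 1 lower in both hyperoxia mice (20.1% and 16.4% of all genes). The median log2 change was 0.68 (0.41 without the female hyperoxia mouse). Urokinase (Plau) had 0 reads in normal air and 26.8 and 51.9 CPM under hyperoxia (at least 447-fold higher), from 12 and 13 cells. Anxa2, the cell-surface dock of plasminogen activation, had 2319 and 2189 CPM against 3578 and 4615 CPM (log2 change 0.85, SE 0.53). Thrombomodulin (Thbd), which turns thrombin into an anticoagulant, overlapped with 1343 and 2806 CPM against 1220 and 1694 CPM.

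The signalling, junction, imprinted gene and hypoxia lists had medians between -0.44 (retinoic acid) and 0.14 (hypoxia and glycolysis), against 0.01 for all genes. With cells thinned to 50000 reads the retinoic acid median was -0.997. The counts in this paragraph are read against 20.1% of all genes higher and 16.4% lower in both hyperoxia mice. Of 23 VEGF, Tie and apelin genes, 2 were higher and 5 lower in both hyperoxia mice (median -0.24). The VEGF receptors overlapped, with 267 and 329 CPM of Kdr in normal air and 324 and 276 CPM under hyperoxia. Angpt2, the ligand that loosens Tie2-stabilised vessels, had 0 reads in normal air and 14.6 and 7.75 CPM under hyperoxia from 2 and 4 cells, and at E18.5 it had 258 and 39.5 CPM. BMP and endoglin genes (17 tested) had 4 higher and 5 lower with a median of -0.17, Notch genes (13 tested) 1 and 1 with a median of -0.27, and retinoic acid genes (13 tested) 3 and 3 with a median of -0.44. Junction and glycocalyx genes (23 tested) had 4 higher and 5 lower (median -0.07), imprinted growth genes (11 tested) 4 and 2 (median -0.04), and hypoxia and glycolysis genes (26 tested) 8 and 5 (median 0.14). These medians rest on few mice: without the P7 male in normal air the Notch median was 1.12, the VEGF, Tie and apelin median 0.09 and the hypoxia median 0.77. Without the P7 female in normal air the junction median was 0.19, the imprinted gene median 0.69, the hypoxia median 0.53, and the BMP and retinoic acid medians 0. On the log2(CPM + 1) scale the hypoxia median was -0.07 in the male pair within 1 run, against 0.06 for the group means. Gja5, connexin 40, an arterial gap junction protein, had 41.9 and 4.09 CPM in normal air and 2 reads in all under hyperoxia. Pfkl, a glycolytic enzyme, had 140 and 121 CPM against 34.4 and 53.1 CPM (log2 change -1.58, SE 0.70). Igf2r, which clears IGF2, had 92.2 and 90.8 CPM against 205 and 287 CPM (1.42, SE 0.56).

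Among 20 vasomotor genes, 2 were higher and 3 lower in both hyperoxia mice (20.1% and 16.4% of all genes). Their median log2 change was -0.15, and 0.03 without the P7 female in normal air. Ddah1, which degrades the inhibitor of nitric oxide synthase ADMA, had 64.9 and 194 CPM in normal air and 415 and 652 CPM under hyperoxia (log2 change 2.07, SE 0.62). Endothelin 1 (Edn1), a constrictor, had 133 and 439 CPM against 468 and 679 CPM (1.03, SE 0.65). The nitric oxide synthase Nos3 overlapped, with 98.2 and 102 CPM against 154 and 71.9 CPM.

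**Figure D3:**
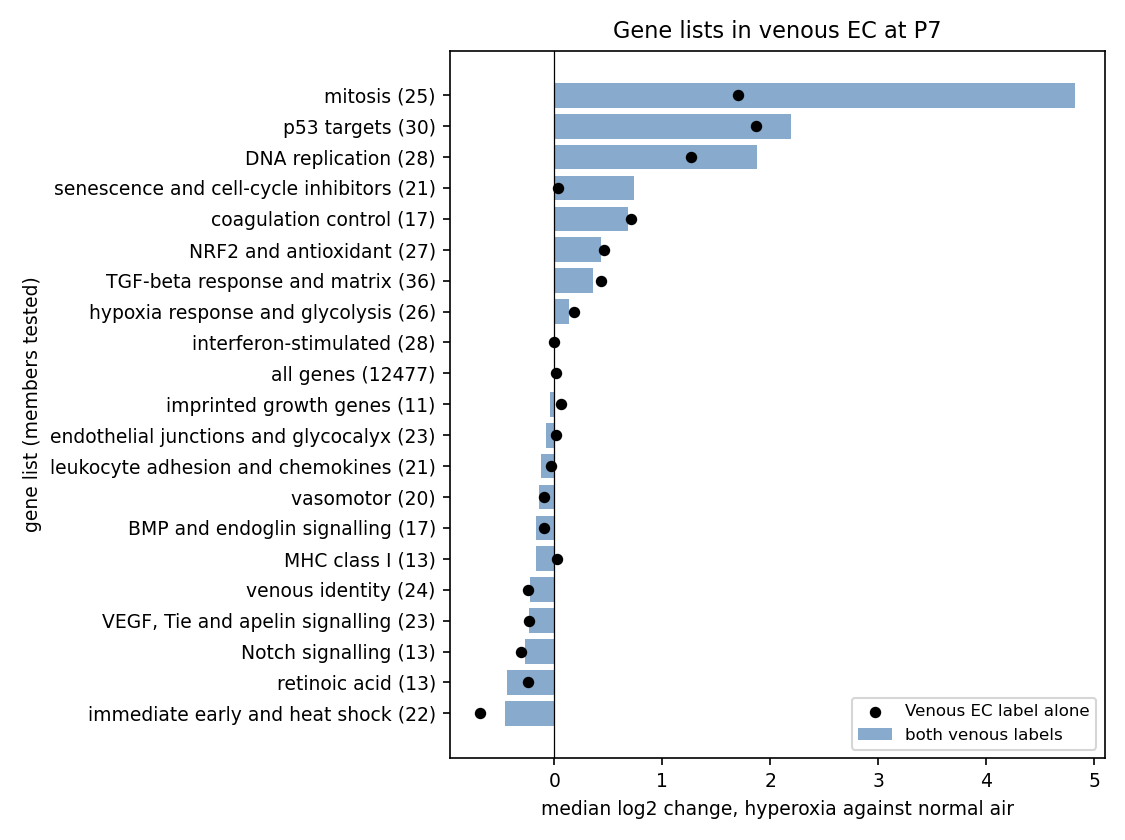
Bars give the median log2 change of each gene list (members tested in parentheses) in venous EC of both labels, hyperoxia against normal air, and black points the same for the label Venous EC alone. The mitosis list drops from 4.82 to 1.70 and the p53 list from 2.19 to 1.87, and the median of all genes is 0.01.

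Outside the lists, the genes with the smallest unadjusted p and clear levels were as follows. Tspan6, a tetraspanin, had 255 and 242 CPM in normal air and 814 and 950 CPM under hyperoxia (log2 change 1.82, SE 0.47), with reads in all 28 and in 32 of 35 cells. Itpripl1 had 23.03 and 53.4 CPM against 191 and 293 CPM (2.69, SE 0.70). Pqlc3 had 1 read in normal air and 118 and 52.99 CPM under hyperoxia, a ratio of 2398. Its counting interval of 430 to 94748 is over pooled reads only, not over cells or mice. Lower genes included Cpne8, a calcium-dependent membrane-binding protein, with 623 and 328 CPM against 110 and 127 CPM (-2.03, SE 0.54). Prex1, an activator of Rac, had 93.9 and 51.0 CPM against 4.96 and 1.38 CPM (-4.58, SE 1.42). Glul, glutamine synthetase, had 149 and 168 CPM against 54.3 and 25.2 CPM (-2.02, SE 0.64). Adamts1, a protease of proteoglycans, had 780 and 514 CPM against 255 and 189 CPM (-1.58, SE 0.51), and Trappc12, a part of a vesicle tether, 126 and 20.7 CPM against 8.01 and 2.68 CPM (-3.87, SE 1.29). Groups that do not overlap were part of the rule that chose these 8 genes.

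To ask whether venous EC differed from capillaries of the same mice, the difference of the hyperoxia effects was tested with the mouse as a term. Capillary endothelium of the lung has Car4- and Car4+ types, the latter with large cells close to the alveoli. edgeR called 0 of 14351 genes against the Car4- capillaries (0%), with 664 at an unadjusted p under 0.05 (4.63%), and DESeq2 called 272 (1.90%). Against the Car4+ capillaries edgeR called 0 of 13325 (0%), with 420 (3.15%), and DESeq2 called 206 (1.55%). The smallest edgeR adjusted p were 0.449 and 0.494. With every cell thinned to 50000 reads, edgeR called 14 genes against the Car4- capillaries (0.113%) and 15 against the Car4+ (0.139%). Lyve1, Serpine2 and the cycle genes Birc5, Rrm2 and Tyms were among the 14, and Cdkn1a and Serpine2 among the 15. The venous sum holds the Proliferative venous EC, found here only in the hyperoxia mice, whereas the capillary classes hold no proliferative label. The part of these cells in the cycle genes called was not tested. With the label Venous EC alone edgeR called 0 genes against either class on the full sums, and thinned cells were not run for that label. Whether single genes differed between the classes thus depended on how the reads were summed and on the tool.

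Cdkn1a was higher under hyperoxia in both, and the Car4- capillaries had 209 and 212 CPM in normal air and 2339 and 3403 CPM in hyperoxia. The venous change exceeded it by 0.09 (SE 0.46, interaction p 0.855, edgeR adjusted p 1). That difference turned to -0.23 with the label Venous EC alone and to -0.42 without the male mouse in normal air. In the Car4+ capillaries Cdkn1a was at 987 and 1004 CPM in normal air and at 2787 and 4598 CPM under hyperoxia, and the venous change was larger by 2.20 (SE 0.62, unadjusted p 0.00526, edgeR adjusted p 1). Over the alternatives this difference lay between 1.46 and 2.94, with an adjusted p of 0.0204 without the low-count filter, 0.0239 with thinned cells and 0.120 with DESeq2. Bax had 159 and 160 CPM in the Car4- capillaries in normal air and 557 and 736 CPM under hyperoxia, a smaller change than in venous EC by 0.93 (SE 0.35, edgeR adjusted p 0.995).

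The hyaluronan receptor Lyve1 had the smallest p. In venous EC it overlapped, with 1952 and 1592 CPM in normal air and 2224 and 1643 CPM under hyperoxia. In the Car4- capillaries it had 825 and 732 CPM against 4023 and 3633 CPM, a difference between classes of -2.17 (SE 0.27, unadjusted p 3.13e-05, edgeR adjusted p 0.449). It was called in 3 of 14 alternatives (DESeq2, no low-count filter and thinned cells), with an adjusted p between 1.12e-07 and 1. Serpine2 went from 32.4 and 27.3 CPM to 358 and 326 CPM in the Car4- capillaries, and its venous change was smaller by 2.20 (SE 0.39, edgeR adjusted p 0.646, and 0.000236 at the lowest of 14 alternatives). Even so, the Car4- level under hyperoxia stayed under the venous level in normal air of the female mouse, 579 CPM, and near that of the male, 353 CPM.

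Other genes differed the opposite way. Fn1 had 59.4 and 43.0 CPM in the Car4- capillaries in normal air and 35.7 and 14.6 CPM under hyperoxia, and the venous change was larger by 3.58 (SE 0.63, edgeR adjusted p 0.646). DESeq2 called Fn1 and Cryab, and no other alternative did. Cryab had 6.87 and 16.8 CPM against 19.8 and 13.7 CPM there (difference 5.23, SE 1.23, edgeR adjusted p 0.892), and Nqo1 4.73 and 0.513 CPM against 2.06 and 2.75 CPM (3.63, SE 1.40, edgeR adjusted p 0.995). In the Car4+ capillaries, however, Cryab went from 0 reads to 55.5 and 53.4 CPM. Tyms had 62.9 and 76.6 CPM against 94.3 and 50.9 CPM in the Car4- capillaries (difference 2.67, SE 0.57, edgeR adjusted p 0.827), a class that by its labels leaves out the proliferative cells, as the venous sum does not. Over 14 alternatives that difference lay between 2.01 and 3.33, and it was called with DESeq2 and with thinned cells. Ackr1 had 0 reads in the Car4+ capillaries of all 4 mice and at most 0.00542 CPM in the Car4-.

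**Figure D4:**
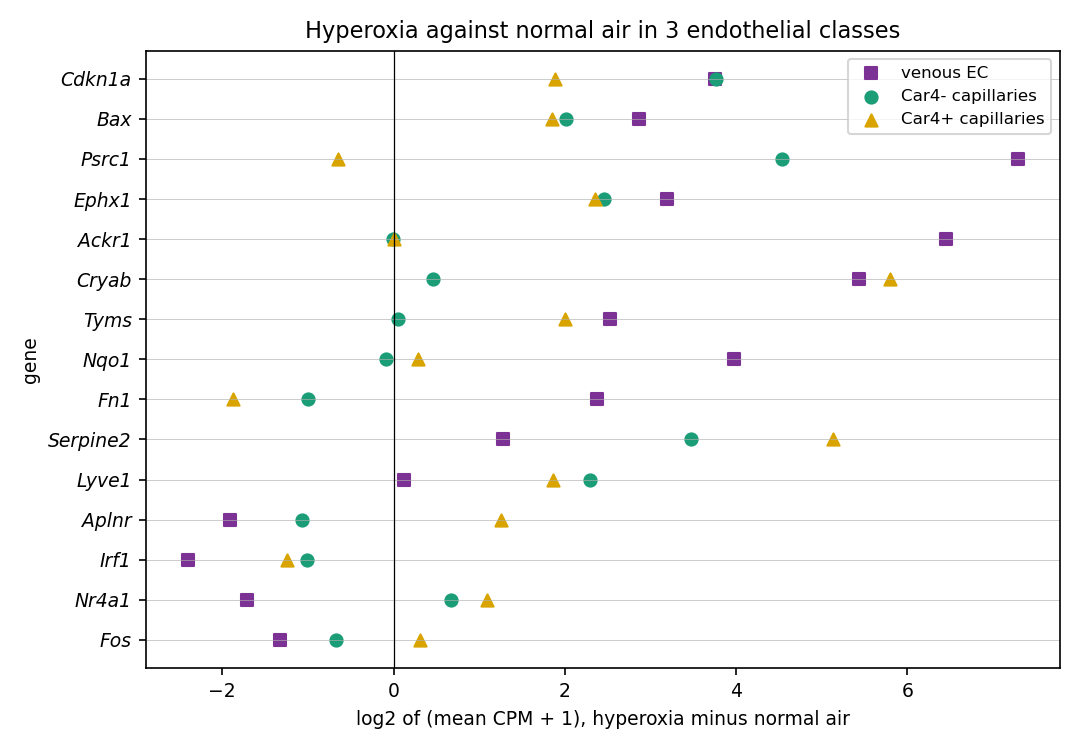
Log2 of (mean CPM + 1) under hyperoxia minus the same in normal air, each mean over 2 mice, for 15 genes in venous EC (squares), Car4- capillaries (circles) and Car4+ capillaries (triangles). Cdkn1a lies at 3.75 in venous EC and 3.76 in Car4- capillaries, whereas Fn1, Nqo1, Serpine2 and Lyve1 lie apart in the classes, and none of the differences passed an adjusted p of 0.05 in edgeR on the full sums.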

How the data were processed

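Plate-based single-cell RNA-seq libraries were made with the transposase Tn5, per the labels' protocols. The deposited table holds raw read counts per gene and cell (18072 symbols), and the authors' cell labels were used as they stand. The submitters' processing notes name STAR 2.5.2b, HTSeq 0.10 and GRCh38, a human build, for these mouse cells, so the build behind the counts is unsettled. Gene positions are those of GENCODE M21 on GRCm38.

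Read counts of the cells of a class were added up for each mouse. edgeR 4.0.16 (TMM, filterByExpr, quasi-likelihood F test) was fitted to the venous sums of E18.5, P1, P7 and P7 hyperoxia in 1 model, with Benjamini-Hochberg adjustment over all genes tested and calls at an adjusted p under 0.05. Classes were compared through an interaction term, with a term per mouse (P1, P7, P7 hyperoxia). The log2 changes, SE and p-values were computed from the deposited counts, and CPM are reads per 1000000 reads of a sum. Both count tests were run on simulated counts drawn with edgeR's estimates of the spread. There edgeR called few of the smaller changes, a minority of the larger ones and few unchanged genes, and DESeq2 called more of each. Alternatives were DESeq2 1.42.0, limma 3.58.1 on log2(mean CPM + 1), RLE, no low-count filter, sex as a block, CD31-gate cells, cells thinned to 50000 reads, other cell or mouse sets, and each mouse left out.

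Per direction, the rule named the 10 genes of smallest p with non-overlapping mice, at least 50 CPM and reads in at least 25% of cells, and of each list the members with p under 0.05 and the 4 most abundant, with the venous and sex markers. Other members named (such as Phlda3, Ccng1, Mdm2, Gdf15, Apln, Rrm2, Sesn1, Ddb2, Edn1 and Nos3) were chosen after their values were seen. The members and lists were chosen with earlier results of these data known.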

Additional observations from a re-analysis of the deposited data

How the results depend on the processing

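The count of genes called in venous EC (0 with edgeR) was 115 with DESeq2, 20 without the low-count filter, 10 with only the 4 P7 mice, and 1 (Cdkn1a) both with thinned cells and with limma. It was 89 with DESeq2 on the label Venous EC alone, an alternative chosen after seeing the data. It stayed 0 with that label in edgeR, with sex as a block, with RLE and with CD31-gate cells. Leaving out 1 mouse gave between 0 and 14 genes, 14 without either E18.5 mouse and 1 (Rasd1) without the P7 female. For the difference from Car4- capillaries (0 called) the counts were 272 with DESeq2, 1 without the filter and 14 with thinned cells, and between 0 and 11 with a mouse left out, 11 without the P7 male. For Car4+ capillaries (0 called) they were 206, 36 and 15, and between 0 and 4, 2 without the P7 female and 4 without the P7 male. The causes were not tested. Of 67 genes with a printed change, 66 kept their direction in every alternative run and 25 were called in at least 1. The log2 change of Ube2c turned to -0.079 with the label Venous EC alone and -0.089 there with DESeq2. The Cdkn1a difference against Car4- capillaries turned to -0.23 with that label, and with a mouse left out it lay between -0.42, without the P7 male, and 0.65. Without the P7 female or male the median of all genes shifted to 0.26 or 0.23, and the median of the p53 list lay between 1.68 and 3.38 over all settings. Without the P7 male the mitosis and replication medians were 10.996 and 3.41, and those of the Notch, leukocyte adhesion and VEGF lists turned to 1.12, 0.50 and 0.09. Without the P7 female those of the venous identity, MHC, vasomotor, junction and imprinted gene lists turned to 0.14, 0.21, 0.03, 0.19 and 0.69, and without the male hyperoxia mouse that of the interferon list turned to -0.18. The shallow P7 male limits what 0 reads in normal air can show. No paired analysis was possible because the mouse names of the groups share no number, and sex as a block stood in for it.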
